A study of Drosophila melanogaster with 2 samples.

Results

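The circadian clock genes of *Drosophila melanogaster* were read in chromatin immunoprecipitation peak lists for CG12768, a member of the MADF family of DNA-binding proteins. They were chosen by name, with earlier results of these data known, as 9 of the 13945 protein-coding genes annotated on the chromosome arms. The 9 were Clk, cyc, per, tim, cry, vri, Pdp1, cwo and dco. All were found by symbol in the Ensembl annotation. Every annotated transcript start of each gene was used, 18 in all, and a summit, the highest point of a peak, was read where it lay within 500 bp of a start, inside the gene, or within 500 bp of the ends of the gene. The last 2 together are called the locus below.

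The data came from 1 group, whole adult male flies of the strain CG12768-GFP, which stably expresses CG12768 with GFP fused to its C terminus. The antibody used was raised against GFP, and the labels give 2 biological replicates. The promoter that drives the fusion, the age of the flies, the time of day and the number of flies per library are not stated in the sources used. Whole flies mix cells that run a clock with cells that do not, and all values are averages over them. There was no second condition, so the clock genes were compared with other genes and the replicates with each other, without a test.

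The fly clock is a loop of transcription and protein turnover. The proteins CLK and CYC pair through their basic helix-loop-helix and PAS regions, bind E-boxes with the letters CACGTG, and switch on per, tim, vri, Pdp1 and cwo. PER and TIM gather in the cytoplasm, enter the nucleus at night and stop CLK and CYC. The kinase encoded by dco, known as Doubletime, marks PER for breakdown, and the blue-light receptor CRY sends TIM to breakdown at dawn. In a second loop VRI represses Clk and PDP1 activates it, while CWO sits at E-boxes and represses the targets of CLK and CYC. The loop runs in pacemaker neurons of the brain, in photoreceptors and in many peripheral tissues.

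The deposited thresholded list held 6066 peaks on the dm6 build, with signal values from 141 to 4110.4 and a median of 223. The signal is the authors' own value per peak and has no stated scale, so it serves here to order peaks within a list, with rank 1 the strongest. The pooled list and the list of each replicate held 30000 peaks each, background included. Sequencing depth is unknown, since the lists hold no read counts, and intervals on shares cover counting error only. No list from flies without the fusion was used here.

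Of the clock genes, 8 of 9 (88.9%, 95% Wilson interval 56.5 to 98.0) had a thresholded summit within 500 bp of a start, against 25.9% of all protein-coding genes. The exception was cwo, whose summits all lay farther inside the gene. The interval describes the count only, since the genes were chosen with earlier results of these data known. Across the loci there were 47 thresholded summits. Of these 34 were in introns, 7 in 5′ UTRs, 5 upstream of the first start and 1 downstream of the gene, and 0 in coding sequence or a 3′ UTR. No such split was made for the whole list, so these counts are not read as particular to the clock genes. A single gene carried the strongest of the 47 summits: cry, at rank 82 of 6066. Most of the summits, 30 of 47, fell in vri and Pdp1, the 2 transcription factor genes of the second loop.

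**Figure D1:**
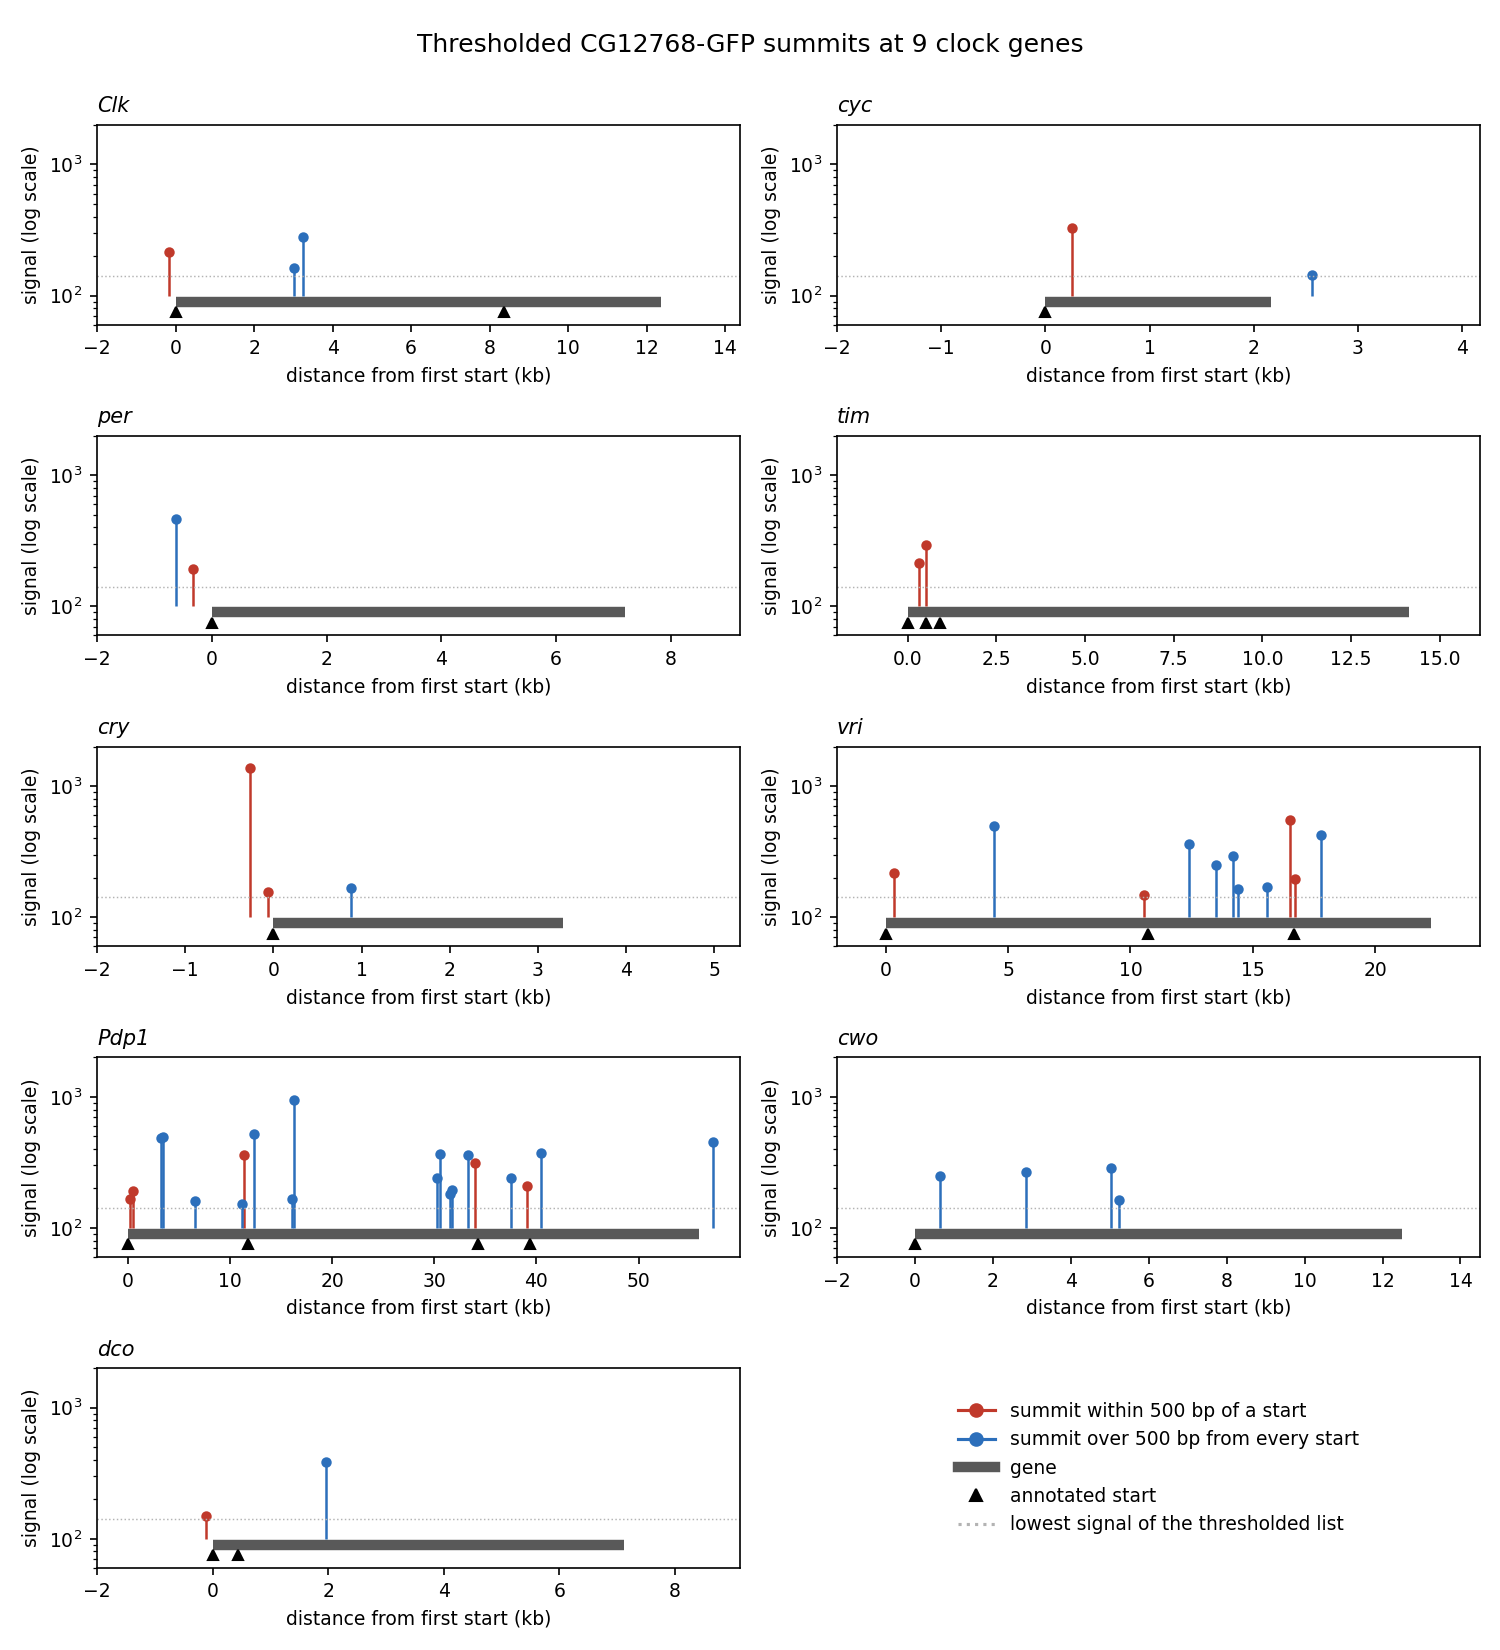
Thresholded summits at the 9 clock genes, 1 panel per gene, drawn 5′ to 3′ with the distance from the first start in kb on the horizontal axis and the authors' signal on a log scale on the vertical axis. Red stems stand within 500 bp of a start and blue stems farther off, triangles mark the 18 annotated starts, and the dotted line is the lowest signal of the list, 141. The tallest stem is at the cry promoter (1369), vri and Pdp1 hold 30 of the 47 locus summits, and the body of per holds 0. The outer stems of per and Pdp1 (signals of 461 and 451) lie outside the loci.

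The sequences that the results turn on are given here from the RefSeq Release 6 genome, which is the dm6 build. The cry promoter carries the strongest summit, 30 bases into the stretch chr3R:19211865-19212164 on the plus strand, which runs through the start of cry; its capitals mark CGATA, the letters at the core of the DRE promoter element. The stretch upstream of per, chrX:2684948-2685247 on the plus strand, spans 2 summits, and its capitals mark the E-box between them. E-box action upstream of per is known from earlier work on the clock.
cry promoter: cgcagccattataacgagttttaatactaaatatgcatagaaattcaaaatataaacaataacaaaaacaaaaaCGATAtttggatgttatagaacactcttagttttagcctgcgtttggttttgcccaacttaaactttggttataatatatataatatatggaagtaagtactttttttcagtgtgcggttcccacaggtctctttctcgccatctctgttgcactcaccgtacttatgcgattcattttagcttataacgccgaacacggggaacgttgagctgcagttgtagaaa
per upstream: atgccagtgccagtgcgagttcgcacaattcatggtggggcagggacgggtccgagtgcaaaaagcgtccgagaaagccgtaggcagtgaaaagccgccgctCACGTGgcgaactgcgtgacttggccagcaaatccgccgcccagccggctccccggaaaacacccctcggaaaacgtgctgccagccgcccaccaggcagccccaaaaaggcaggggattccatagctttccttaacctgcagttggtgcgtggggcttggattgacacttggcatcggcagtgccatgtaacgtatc
The E-box in vri lies 14410 bp downstream of its first start, in 60 bp at chr2L:5303325-5303384 on the plus strand. In Pdp1, E-boxes lie within 100 bp of a summit at 209, 30287, 33235 and 37547 bp from the first start. Their 60 bp windows on the minus strand are chr3L:7867131-7867190, chr3L:7837053-7837112, chr3L:7834105-7834164 and chr3L:7829793-7829852. In cwo a pair of E-boxes flanks a summit inside an intron, in 180 bp at chr3R:10393211-10393390 on the plus strand. The capitals in all of these mark CACGTG.
vri at 14410 bp: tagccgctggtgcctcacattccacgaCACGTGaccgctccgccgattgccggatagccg
Pdp1 at 209 bp: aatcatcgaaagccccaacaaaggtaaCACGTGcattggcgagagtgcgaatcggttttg
Pdp1 at 30287 bp: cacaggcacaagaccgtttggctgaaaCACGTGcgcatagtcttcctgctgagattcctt
Pdp1 at 33235 bp: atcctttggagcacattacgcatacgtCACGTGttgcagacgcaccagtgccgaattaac
Pdp1 at 37547 bp: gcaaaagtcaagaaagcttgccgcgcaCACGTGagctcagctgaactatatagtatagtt
cwo intron pair: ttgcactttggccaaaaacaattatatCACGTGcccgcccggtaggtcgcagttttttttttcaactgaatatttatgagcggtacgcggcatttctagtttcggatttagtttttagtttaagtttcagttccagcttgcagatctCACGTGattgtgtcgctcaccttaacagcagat
Summits without an E-box are shown for contrast: the strongest one inside a clock gene, in a Pdp1 intron (chr3L:7851046-7851105, minus strand), the strongest one of vri, upstream of the third start (chr2L:5305436-5305495, plus strand), and the Clk promoter (chr3L:7775736-7775795, minus strand), whose capitals mark GAGAGAG.
Pdp1 strongest intron summit: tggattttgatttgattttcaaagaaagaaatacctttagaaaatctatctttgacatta
vri upstream of the third start: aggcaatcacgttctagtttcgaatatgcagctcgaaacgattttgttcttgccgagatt
Clk promoter: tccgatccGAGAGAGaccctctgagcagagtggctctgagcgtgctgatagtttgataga

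The activator genes had promoter summits at middle ranks of the thresholded list. Clk (FBgn0023076, chr3L:7763233-7775603, minus strand) had 5 transcripts from 2 starts 8373 bp apart. Its promoter summit lay 162 bp upstream of the first start, with a signal of 216 and rank 3185, and the 60 bp there hold the GAGA-type letters shown above. The replicates did not place it alike: the overlapping peak was at rank 1743 in replicate 1 and at rank 11138 in replicate 2, which had its strongest promoter peak, at rank 10557, 227 bp inside the gene. Clk also had 2 summits in an intron, 3028 and 3233 bp from the first start, with signals of 162 and 280. The stronger of these ranked 1866 in replicate 1 and 2458 in replicate 2, so that the intron site was nearer the top of replicate 2 than the promoter was. No thresholded summit lay near the second start.

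The partner gene cyc (FBgn0023094, chr3L:19813770-19815938, minus strand) is the shortest of the set, at 2.169 kb, with 1 transcript. Its summit lay in an intron 260 bp inside the gene, with a signal of 326 and rank 1577. Its ranks were 1173 in replicate 1 and 1720 in replicate 2, the smallest ratio between replicate ranks of the 8 genes. A weaker summit (signal 144, rank 5878) lay past the 3′ end, 2556 bp from the cyc start, within 500 bp of a start of Cyp305a1, a cytochrome P450 gene, and ranked 3711 in replicate 1 and 17070 in replicate 2.

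The repressor genes differed in where the peaks fell. In per (FBgn0003068, chrX:2685580-2692780, plus strand) the thresholded list held 0 summits inside the gene and 2 upstream. The nearer lay 336 bp upstream, with a signal of 194 and rank 3787. The farther lay 628 bp upstream, outside the 500 bp limit, and was stronger, with a signal of 461 and rank 803. Between them lies the E-box printed above, centred 528 bp upstream of the start and 100 bp from the farther summit. The replicates ranked the sites in opposite order: the farther one was at 304 in replicate 1 and 3672 in replicate 2, and the nearer one at 8717 in replicate 1 and 2580 in replicate 2. The 200 bp around the farther summit were 61.0% GC, and those around the nearer one 42.5%.

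In tim (FBgn0014396, chr2L:3493986-3508119, minus strand) 10 transcripts start at 3 places within 901 bp. Both of its summits lay there, in 5′ UTR sequence of the longer transcripts. The stronger was 7 bp downstream of the second start, with a signal of 293 and rank 1906, and the other lay 194 bp upstream of that start, with a signal of 213 and rank 3259. Replicate 2 had both, at ranks 1477 and 1916. Replicate 1 had a peak between them at rank 8023 and its strongest promoter peak, at rank 3061, 151 bp downstream of the second start. The sequence around both summits was rich in A and T, at 28.0% and 31.0% GC. The remaining body of tim held 0 thresholded summits.

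The light receptor gene cry (FBgn0025680, chr3R:19212154-19215442, plus strand) had the strongest promoter summit of the set. It lay 260 bp upstream of the start, with a signal of 1369 and rank 82, and 78 of the 3613 genes with a thresholded promoter summit had a stronger one. Replicate 1 had it at rank 162, with a signal of 477, and replicate 2 at rank 54, with a signal of 886. The summit of replicate 1 was 279 bp and that of replicate 2 was 245 bp upstream of the start, so both were on the same side and 34 bp apart. A second summit of the same pooled peak lay 57 bp upstream, with a signal of 154 and rank 5303, and the replicate 1 peak likewise had a second summit near it, at rank 2028. The last, 878 bp inside the gene in an intron, had a signal of 168 and ranked 3093 in replicate 1 and 5669 in replicate 2. The long non-coding RNA gene lncRNA:CR46393 has the same annotated start position as cry, so the promoter peak cannot be given to either gene alone.

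The protein-coding genes whose promoter peaks were most like that of cry in rank were sought among 3538 genes with a peak in both replicates. The measure was the distance between the log10 ranks in replicate 1 and replicate 2. CG7601 and CIA30, which share a peak, came first at a distance of 0.0687, with ranks of 143 in replicate 1 and 49 in replicate 2. Pex11ab followed at 0.0828, with ranks of 134 and 53.

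In the second loop, vri and Pdp1 carried many summits away from their starts. The gene vri (FBgn0016076, chr2L:5288944-5311223, plus strand) encodes a basic leucine zipper repressor and has 3 starts. Each start had a thresholded summit within 500 bp. The summit nearest the first start was 345 bp inside the gene, with a signal of 216 and ranks of 3785 in replicate 1 and 3812 in replicate 2. The thresholded summit nearest the second start lay 152 bp upstream of it and was the weakest in the gene, with a signal of 148. The overlapping peaks ranked 4028 in replicate 1 and 5536 in replicate 2. Their summits lay 57 bp downstream and 202 bp upstream of that start, so the replicates did not place it alike. The third start had the strongest summit of vri, 185 bp upstream, with a signal of 553 and rank 581, and ranks of 386 in replicate 1 and 1093 in replicate 2. A weaker summit (signal 197) lay 21 bp inside the transcripts of that start. The strongest promoter summit of vri therefore belonged to the start used by 3 of its 5 transcripts, 16706 bp from the first.

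The other 7 summits of vri lay in introns, with signals from 165 to 496. The strongest was 4442 bp from the first start, at rank 705, with nearly equal ranks of 904 in replicate 1 and 695 in replicate 2. Of the 11 summits in vri, 10 had an overlapping peak in both replicates. The exception, 2518 bp upstream of the third start, had a signal of 290, ranked 1701 in replicate 2 and overlapped no peak of replicate 1. Its neighbour 202 bp away, at the E-box printed above, had a signal of 165 and ranked 1264 in replicate 1 and 22158 in replicate 2. The 200 bp around these 2 summits were 32.5% and 60.5% GC.

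Pdp1 (FBgn0016694, chr3L:7811458-7867369, minus strand) encodes a basic leucine zipper activator and is the longest of the set, at 55.9 kb, with 13 transcripts from 4 starts. It held 19 thresholded summits, unevenly spread, with a stretch of 13961 bp between neighbours, and each of its 4 starts had at least 1 within 500 bp. The strongest promoter summit lay 397 bp upstream of the second start, from which 7 transcripts run, with a signal of 360 and rank 1328. Replicate 1 had that peak at 8760 and replicate 2 at 561. The summits at the third and the fourth start lay 288 and 239 bp upstream, with signals of 312 and 210, and those at the first start lay 215 and 498 bp inside the gene, with signals of 168 and 191.

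The strongest summit inside any clock gene was in a Pdp1 intron, 4473 bp downstream of the second start. It had a signal of 943 and rank 161, and the replicates ranked it 158 (signal 482) and 269 (signal 446). The 60 bp at its summit, printed above, are 23.3% GC and hold no E-box. Other strong sites were a 5′ UTR summit 523 bp downstream of the second start (signal 523, ranks 262 in replicate 1 and 2215 in replicate 2) and a pair of intron summits 3238 and 3440 bp from the first start (signals of 485 and 494). The members of that pair lie 202 bp apart and differed between the replicates. The summit at 3238 bp ranked 980 in replicate 1 and 642 in replicate 2, whereas the one at 3440 bp overlapped no peak of replicate 1 and ranked 413 in replicate 2. A summit with a signal of 451 lay past the 3′ end of Pdp1, near a start of CG32369, and was outside the locus.

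The gene cwo (FBgn0259938, chr3R:10388258-10400752, plus strand) encodes a basic helix-loop-helix repressor with an Orange domain. Its single start had no thresholded summit within 500 bp. The pooled list had a peak 44 bp inside the gene with a signal of 46.7 and rank 25144, replicate 1 had 1 at 29 bp with rank 12140, and replicate 2 had none. The 4 thresholded summits of cwo lay inside the gene. The first, 637 bp from the start in the 5′ UTR, had a signal of 250 and ranked 1668 in replicate 1 and 3770 in replicate 2. The others were in introns, 2849, 5031 and 5234 bp from the start, with signals of 265, 287 and 165. All 4 ranked nearer the top in replicate 1 than in replicate 2. The strongest, at 5031 bp, ranked 1044 in replicate 1 and 4794 in replicate 2, and the E-boxes of the printed pair lie 49 and 71 bp from it.

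The kinase gene dco (FBgn0002413, chr3R:31054085-31061210, minus strand) had the weakest promoter summit of the 8. It lay 117 bp upstream of the first start, with a signal of 149 and rank 5639, and ranked 7703 in replicate 1 and 3339 in replicate 2. Its stronger site was in an intron, 1532 bp downstream of the second start, with a signal of 386 and rank 1158. For the intron peak the ranks were 1878 in replicate 1 and 924 in replicate 2. The second start, 437 bp from the first, had no thresholded summit within 500 bp, although each replicate's own list had a peak there, at ranks 8277 and 8085.

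**Figure D2:**
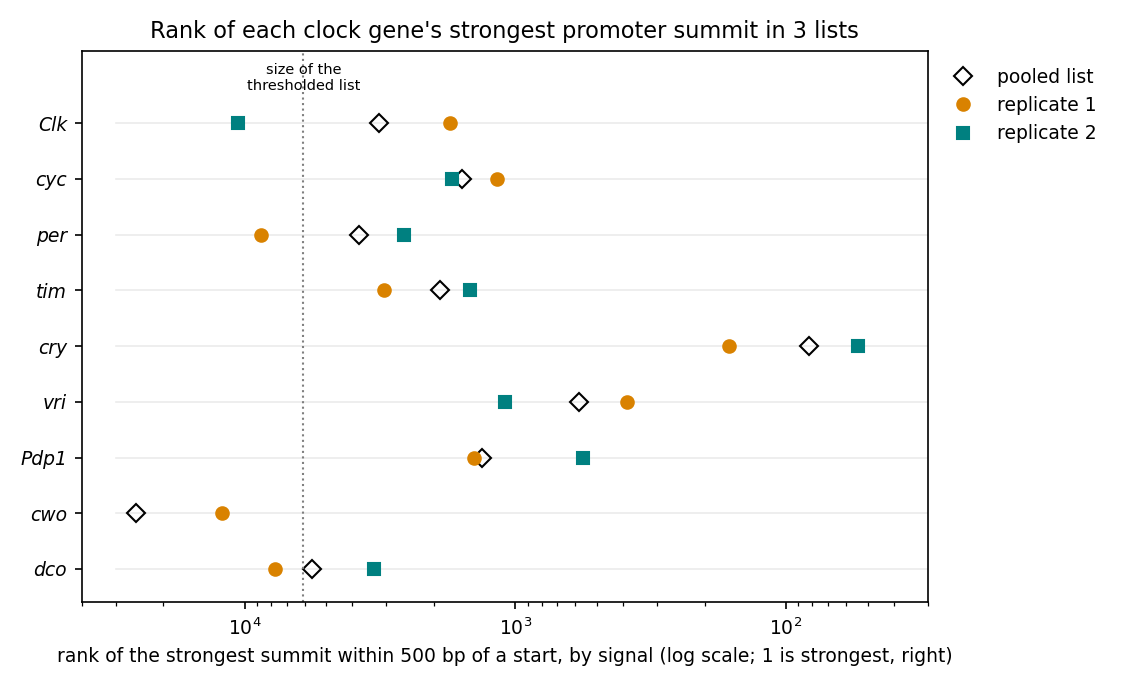
Rank of the strongest summit within 500 bp of a start for each clock gene, on a log scale with the strongest peaks to the right. Open diamonds are the pooled list, circles replicate 1 and squares replicate 2, and the dotted line marks rank 6066, the size of the thresholded list. cry is farthest to the right in all 3 lists (82, 162 and 54), Clk, per and dco change sides of the line between replicates, and cwo lies left of it with no point for replicate 2.

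Ordered by the pooled rank of the strongest promoter summit, the genes ran cry (82), vri (581), Pdp1 (1328), cyc (1577), tim (1906), Clk (3185), per (3787), dco (5639) and cwo (25144). The order from vri to tim is not fixed by these data, because replicate 1 put vri (386) before cyc (1173), Pdp1 (1420) and tim (3061), and replicate 2 put Pdp1 (561) before vri (1093), tim (1477) and cyc (1720). Among the last 4, Clk was at 1743 in replicate 1 and per at 8717, while in replicate 2 per was at 2580 and Clk at 10557. cry led in both. Each value is the strongest promoter peak of its own list, which need not be the same site. For Pdp1 it lay at the fourth start in replicate 1 and at the second in replicate 2. For tim it lay 151 and 10 bp downstream of the second start. For Clk it lay upstream of the first start in replicate 1 and 227 bp inside the gene in replicate 2. The limit of 500 bp cut close to several sites. Just inside it was the Pdp1 summit at 498 bp (signal 191), and just outside were the Pdp1 summits at 523 bp (signal 523) and 650 bp (153), the per summit at 628 bp (461) and the cwo summit at 637 bp (250).

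The count of 8 of 9 depends on the list, and the share of all genes set beside it differs with the number of starts. In replicate 1's 6066 leading peaks by signal, 6 of 9 clock genes had a promoter summit, against 22.9% of all genes, and per, cwo and dco did not. In replicate 2's leading peaks it was 7 of 9, against 27.9%, and Clk and cwo did not. With gene bodies included, all 9 had a thresholded summit, against 31.9% of all genes. In the unthresholded lists the shares of all genes were higher: 9 of 9 clock genes against 55.8% in the pooled list, 9 of 9 against 52.7% in replicate 1 and 8 of 9 against 55.1% in replicate 2. Genes with more starts had a thresholded promoter summit more often. Of all genes with 1 start 19.6% had one, and 3 of the 4 clock genes with 1 start did. With 2 starts the share of all genes was 37.2%, with 3 it was 50.5% and with 4 or more 68.9%, and all 5 clock genes in these classes had one. By length, the share of all genes was 22.2% under 5 kb, 37.4% from 5 to 10 kb, 39.0% from 10 to 20 kb and 34.8% above, and the clock genes were at 2 of 2, 2 of 2, 2 of 3 and 2 of 2.

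Summits away from promoters were the larger share in the clock genes. Of the 47 locus summits 17 (36.2%) lay within 500 bp of a start of the clock gene itself. Counting the cyc downstream summit at the Cyp305a1 start, 18 (38.3%) lay within 500 bp of a start of any protein-coding gene, against 55.4% of all 6066. The median signal was 213 for the 17 and 258 for the other 30. The bodies of the clock genes, 137 kb in all, held 41 summits or 0.299 per kb, against 0.0471 per kb over all protein-coding gene bodies. Pdp1 had 19, as did shn, and only CG46467 and Glut4EF, genes of 114 and 121 kb, had more, with 21 each. Of 380 genes within 1.5 times its length, the median had 0 summits, the 90th percentile was 6, and 1 had as many. The 11 summits of vri were exceeded by 16 genes, and 7 of 787 genes of similar length (0.889%) had as many or more. The 4 of cwo were matched or exceeded by 75 of 1154 (6.50%). The counts of Clk and tim (2 each) were matched or exceeded by 23.6% and 25.3% of genes of similar length, and those of cyc, cry and dco (1 each) by 11.4%, 16.8% and 34.5%. Per kb of body, vri had 0.494, cyc 0.461, Pdp1 0.340, cwo 0.320 and cry 0.304, while Clk, tim and dco had 0.162, 0.142 and 0.140, and per had 0. The values of cyc, cry and dco rest on 1 summit each. Neighbouring peaks overlap in places: with overlapping peaks joined, Pdp1 had 14 regions and vri 9, and 6 and 19 genes had more.

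**Figure D3:**
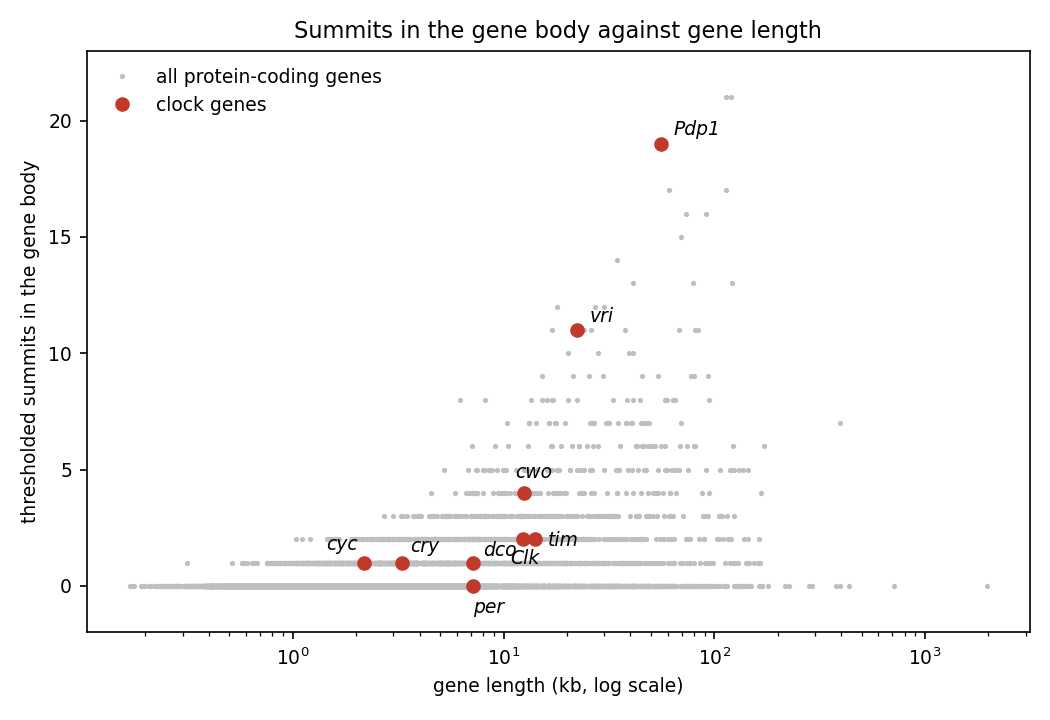
Number of thresholded summits in the gene body against gene length in kb (log scale) for all 13945 protein-coding genes (grey) and the 9 clock genes (red). Pdp1 (19) and vri (11) stand near the upper edge of genes of their length, cwo (4) lies above most, and per is at 0.

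The replicates were compared at the 47 locus summits. A peak of both replicates overlapped 45 of the 47 (95.7%), against 98.5% of the whole thresholded list, and the exceptions were the vri and Pdp1 summits named above, which replicate 1 lacked. The leading 6066 peaks of both replicates overlapped 38 of 47 clock peaks (80.9%), against 67.7% of the whole list. That count takes any overlapping leading peak, which may be that of a neighbouring summit. By the overlapping peak with the nearest summit, whose ranks are given above, it was 26 of 47. No such count was made for the whole list. With summits of both within 100 bp it was 39 (83.0%), against 86.9%. Of the 45, 28 ranked nearer the top in replicate 1 and 17 in replicate 2, against 2974 and 2995 of 5973 in the whole list. This ordering followed base composition. Of the 23 clock summits below 41.5% GC, the median of the list, 15 ranked nearer the top in replicate 2, with median ranks of 3177 in replicate 1 and 1916 in replicate 2. Of the 22 at or above it, 20 ranked nearer the top in replicate 1, with median ranks of 1374 in replicate 1 and 4930.5 in replicate 2. The whole list showed the same: 71.2% of its summits below the median and 29.4% of those above ranked nearer the top in replicate 2. Spearman's rho between GC and the log2 ratio of the rank in replicate 1 to that in replicate 2 was −0.66 over the 45 clock summits and −0.51 over 5973 of the whole list, points that share their libraries. The 2 GC-rich exceptions were the per summit 336 bp upstream (42.5%) and the Pdp1 summit at 3238 bp (52.5%), which ranked nearer the top in replicate 2. The part of base composition in the differences between replicates described above was not tested.

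**Figure D4:**
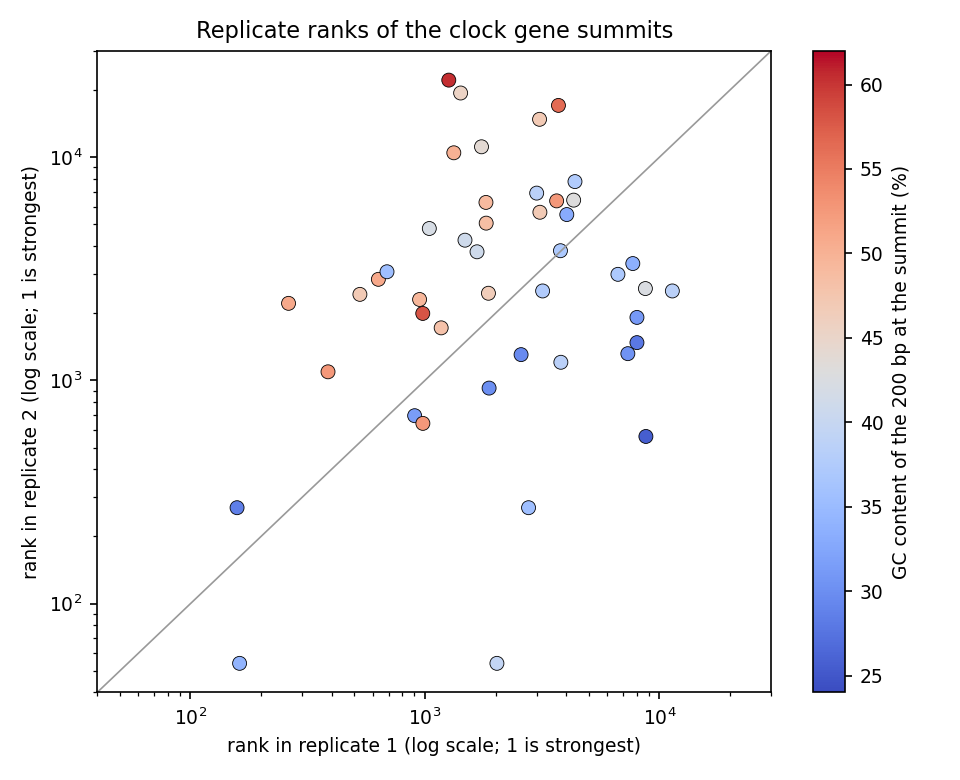
Rank in replicate 1 (horizontal) against rank in replicate 2 (vertical), both on log scales with the strongest at the lower left, for the 45 clock summits that overlap a peak of both lists, coloured by the GC content of the 200 bp at the summit. Points above the line ranked nearer the top in replicate 1. Most GC-rich (red) points lie above it and most GC-poor (blue) points below it, and neighbouring summits that overlap the same replicate peak share its rank.

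The E-box letters CACGTG, which read the same on both strands, lay within the 200 bp at 6 of 47 clock summits (12.8%, Wilson interval 5.98 to 25.2), against 3.03% of all 6066 summits (2.63 to 3.50). The 6 were 4 in Pdp1, 1 in vri and 1 in cwo. Without Pdp1 the count was 2 of 28 (7.14%), a split added once the data had been seen. The intervals above treat summits of the same gene as independent, and no interval was computed without Pdp1. Of promoter windows of 300 bp, from 250 bp before the first start of each protein-coding gene, 4.20% held the letters, as did 3 of the 70 clock summits of the pooled list that missed the threshold (4.29%). In a 400 bp window 12 of 47 clock summits (25.5%) held them, against 6.63% of all. The letters are frequent in these loci at large. There were 44 in the 173 kb of the clock genes with 2000 bp on each side, or 0.254 per kb, against 0.123 per kb over the arms. per (8, or 0.714 per kb) and cwo (10, or 0.606 per kb) were the densest, and Pdp1 had 13 (0.217 per kb). dco had 0.270 per kb. Clk (0.122), tim (0.110), cry (0.137), vri (0.152) and cyc (0.162) were nearer the value of the arms. Within the loci, E-boxes within 100 bp of a summit came to 7 in 9.4 kb (0.745 per kb), against 29 in the other 136.6 kb (0.212 per kb).

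Most E-boxes of the clock loci were not at a summit. Only 8 of 44 lay within 100 bp of any thresholded summit: the 4 in Pdp1 and the 1 in vri, 2 in cwo, and 1 of the 8 at per, which was exactly 100 bp from the summit outside the locus. The E-box 185 bp downstream of the second start of tim was 178 bp from the nearest summit. Summits with an E-box were mostly of middle signal. In Pdp1 they had signals of 168, 239, 362 and 242, in vri 165 and in cwo 287, and every one ranked nearer the top in replicate 1. All of them were above the list median of 41.5% GC. At or above that median 20 of 22 clock summits, with or without an E-box, ranked nearer the top in replicate 1. The strongest summits of cry, vri and Pdp1 and both summits of tim held no E-box.

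**Figure D5:**
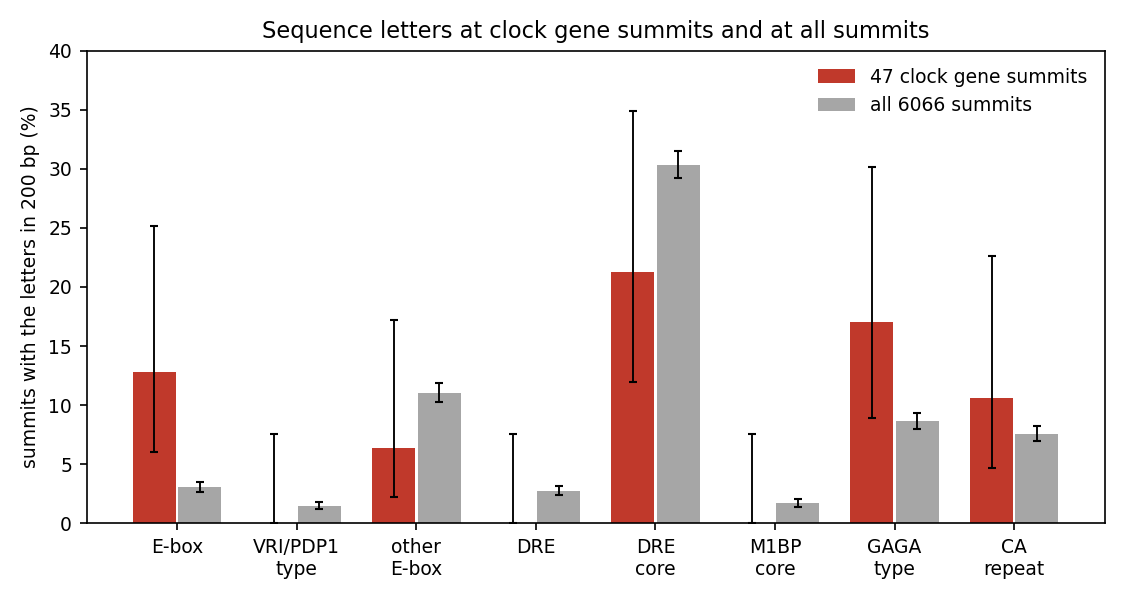
Share of summits with each set of letters in the 200 bp at the summit, for 47 clock summits (red) and all 6066 thresholded summits (grey), with 95% Wilson intervals as bars. The E-box share is 12.8% at clock summits and 3.03% at all thresholded summits. These intervals do not overlap, but they treat summits of the same gene as independent. Of the 6 clock summits with an E-box 4 are in Pdp1, and without Pdp1 the share is 2 of 28 (7.14%). At 0 of 47 are 3 of the 8 sets of letters.

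Other letters were searched on both strands. The site type shared by VRI and PDP1, TTATGTAA, was at 0 of 47 clock summits (upper bound 7.56%) and at 1.48% of all. The other E-box CAGCTG was at 3 of 47 (6.38%), all in Pdp1, against 11.0%. The DRE letters TATCGATA were at 0 of 47, against 2.74%, and CGATA, which lies within them, was at 10 of 47 (21.3%), against 30.3%. The order turned with the window: CGATA was at 19.1% against 16.9% in 100 bp and at 51.1% against 48.9% in 400 bp. GGTCACAC, the core of the M1BP promoter motif, was at 0 of 47, against 1.68%. The shares of all 300 bp promoters with these last 3 were 9.36%, 47.4% and 7.70%. GAGAGAG was at 8 of 47 (17.0%, 8.89 to 30.1), in Clk, cyc, cry and Pdp1, against 8.62%, and CACACACA was at 5 of 47 (10.6%), against 7.57%. The interval of the clock summits held the share of the whole list in each of these sets except GAGAGAG. Its lower bound of 8.89% stood just above 8.62%. In a 100 bp window GAGAGAG was at 3 of 47 (6.38%), against 3.99% of all, and in 400 bp at 11 of 47 (23.4%), against 16.6%. The median GC content of the clock summits was 41.0% (24.5% to 60.5%), against 41.5% for the whole list.

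Beyond the 9 genes, a list of 40 others tied to the clock was read, all of which were matched in the annotation. Of these 19 (47.5%, 32.9 to 62.5) had a thresholded promoter summit, against 25.9% of all genes. Several have many starts, such as sgg (11) and Eip75B (7), and genes with more starts had such a summit more often. The part of this in the count was not tested. With the most upstream start of each gene only, 14 of the 40 had a promoter summit, against 23.1% of all genes. Genes for the marking and turnover of PER and TIM had one in 9 of 13. The strongest was at mts, the catalytic subunit of protein phosphatase 2A (signal 640, rank 429, in a promoter shared with Rack1), followed by its regulatory subunit gene tws (453), the GSK-3 kinase gene sgg (431) and the other regulatory subunit gene wdb (342). CkIIalpha, CkIIbeta, jet and Usp8 had none. Cofactors of CLK and CYC and other regulators had one in 7 of 8. There brm, the ATPase of the fly SWI/SNF complex, had a signal of 1464.1 and rank 64 in a promoter shared with Arl1, above that of cry, and ranked 159 in replicate 1 and 44 in replicate 2. kay, the fly Fos gene (571), the nuclear receptor gene Eip75B (382) and the MADS-box gene Mef2 (375) followed, and Hr51 had none. Eip75B held 17 summits in its body, near the 19 of Pdp1.

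Of the genes of clock input and output few had a promoter summit, in lists too short to set them apart from the 25.9% of all genes. None of the 6 for light and temperature input (norpA, Rh7, qsm, nocte, Ir25a and gl) had a thresholded promoter summit (Wilson upper bound 39.0%). Of the 9 output genes only Fmr1, an RNA-binding protein gene, had one (214; 11.1%, interval 1.99 to 43.5), and the neuropeptide gene Pdf had no promoter peak in either replicate's list. In the RNA and translation group 2 of 4 had one, Atx2 (280) and lark (181, in a promoter shared with eco). Several genes of the PER and TIM turnover group and of the cofactor group act in most cells, brm among them. The part of that breadth in the counts of the wider list was not tested.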

How the data were processed

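Peak lists of a chromatin immunoprecipitation from whole adult males, 1 transgenic line in 2 biological replicates, were analysed. Chromatin was sheared by sonication, per the labels. The authors deposited per replicate, pooled and thresholded lists on dm6. Their threshold was an irreproducible discovery rate (IDR), per the file headers and labels. Both replicates list the same control file, per the accompanying notes of the authors, so they are not independent in that respect. The aligner, peak caller, their versions and the IDR limit are not stated in the sources used.

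Each peak carries a signal from the authors' peak caller, deposited without a stated scale, the −log10 of a q-value, also deposited, which stops at 3.98 (38 of the 47 clock summits hold it), and a summit offset. The summit is the deposited peak start plus that offset. The dm3 lists were not used, since coordinates were not converted between builds.

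From these files, summits were set against protein-coding transcript starts and genes of Ensembl release 115, with distances from the nearest start of the gene, and ranked by signal. Peaks of replicates were matched by at least 1 shared base. Letters were searched in 200 bp at each summit and in promoters running from 250 bp before each gene's first start, 300 bp in all. Similar length means within 1.5 times. Shares carry 95% Wilson intervals. No p-value was computed, because there is 1 group. The text names all 9 genes, genes sharing their promoter peaks, up to 4 genes of each group of the wider list and the 3 genes most like cry. Genes with the most body summits, and those without a promoter summit, were named after their values were seen. The members, lists and letters were chosen with earlier results of these data known. The counting steps were tested on simulated data. Alternatives were promoter distances of 250 and 1000 bp, the stronger 3033 peaks, the pooled list, each replicate alone, other rules for starts, locus width, overlap and motif window. Joining overlapping peaks, leaving out Pdp1 and splitting by GC were added after seeing the data. Calculations used Python 3.11.15 with numpy 2.4.6, pandas 2.3.3 and scipy 1.17.1.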

Additional observations from a re-analysis of the deposited data

How the results depend on the processing

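With the 3033 strongest thresholded peaks alone, 5 of 9 clock genes had a promoter summit (cry, vri, Pdp1, cyc and tim), against 15.4% of all genes. The wider list then had 12 genes and the clock loci 25 summits, in place of 19 and 47. With every pooled peak counted, 55.8% of all genes and 35 of the 40 wider genes had one. Clock genes numbered 6 at 250 bp, where cyc and per were lost, against 21.6% of all genes, and 9 at 1000 bp, where cwo was gained, against 29.7%. They numbered 8 with summits counted for the nearest start alone, against 20.5%, and 8 with the most upstream start only, against 23.1%. Leaving out 1 replicate gave 6 to 7 clock genes, 22.9% to 27.9% of all genes, 16 to 21 wider genes and 40 to 43 locus summits. Across the counts that answer a comparison 27 values stayed within 1.5 times and 6 did not. Single ranks moved more: at 250 bp cry fell back to 5303, since its summit at 260 bp was left out, and at 1000 bp per stood at 803 and Pdp1 at 650. Found in both replicates were 31 of 47 clock summits (66.0%) by overlap of 0.5 of both peaks, against 80.6% of the whole list, and 39 (83.0%) by summits within 100 bp, against 86.9%. The comparison with the list thus turns with the rule, since the clock share was the higher one only among leading peaks counted by any overlap. No paired analysis was possible because there is only 1 group. With 9 genes, 2 replicates, no depth, a shared control file and no list from flies without the fusion, the shares above have wide limits, and peaks that the antibody recovers without the fusion cannot be told apart from its binding.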
